A study of Rattus norvegicus with 55 samples.

Results

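The genes described here mark the contractile and mesenchymal cells of the kidney: Acta2, Tagln, Myh11, Cnn1, Myl9 and Cald1, which encode parts and regulators of the smooth muscle contractile apparatus, the integrin subunit gene Itga8, the PDGF receptor genes Pdgfra and Pdgfrb, and the intermediate filament gene Vim. They were chosen by name, as every probe set annotated to 1 of these 10 genes. They are 10 of the 4737 genes named on the array, and 23 of its 8799 probe sets. Of these, 19 carried 1 symbol and are named here. The other 4 were annotated to Acta2 and the cardiac actin gene Actc1 together and are not counted as Acta2. A filter on dim probe sets left 16 of the 19 to be tested, and at least 1 for each of the 10 genes. Further, 2 divisions of the arrays are used: the stage in the sample description, and whether the probe set X56596_at of the MHC class II gene RT1-Bb read above or below 600.

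The series holds kidney RNA of 55 rat samples on 1-colour Affymetrix arrays. All samples have the title SHR kidney (SHR usually stands for the spontaneously hypertensive rat) and all descriptions say Wistar-derived. The descriptions name an immature (13 arrays), a young (14 arrays) and a mature kidney (14 arrays), and 14 more arrays carry no stage word. No age, sex, treatment or animal number is stated, so arrays of a group may share an animal, and the p-values then measure only a spread between samples that may be technical. The question the descriptions pose is how expression differs between stages of growth.

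In a kidney, smooth muscle cells form the media of arteries and arterioles, mesangial cells hold the glomerular capillaries together, and pericytes and fibroblasts lie between tubules and peritubular capillaries. Contractile genes of smooth muscle are switched on by serum response factor (SRF) and its coactivator myocardin, which act through CArG boxes in promoters. Pdgfrb carries the PDGF-B signal that recruits mesangial cells and pericytes during growth of vessels and glomeruli, and Itga8 pairs with the beta 1 chain in mesenchyme and mesangium. In whole-kidney RNA, fewer cells of a type and less RNA per cell cannot be told apart.

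SRF boxes were looked for in the 250 bases before the annotated start of each gene, since this is the shared control described for contractile genes. RefSeq windows on the rat build GRCr8 were at hand for 6 of the 10 genes (7 windows): Acta2, Cald1, Cnn1, Pdgfra, Itga8 and Vim. Tagln, Myh11, Myl9 and Pdgfrb are named only. The search took the CArG box on both strands, first in its strict form and then with 1 G or C allowed in its A/T core. No window held the strict form, and Acta2 alone held the looser form, with 2 boxes whose first bases lie at -134 and -84. In all 33469 promoter windows of that length, 501 held a strict box and 2703 (8.08%) a looser one. A match is a description of letters and not a binding site. The Acta2 window, chr1:241172504-241172753 on the minus strand of GRCr8, is printed 5′ to 3′ with the 2 boxes in capitals.
Acta2: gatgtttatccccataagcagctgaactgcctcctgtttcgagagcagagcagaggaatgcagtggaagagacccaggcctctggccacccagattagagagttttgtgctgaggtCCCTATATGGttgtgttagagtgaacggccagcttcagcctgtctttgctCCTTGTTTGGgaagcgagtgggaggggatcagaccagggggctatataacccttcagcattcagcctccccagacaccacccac

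Values are the deposited intensities on a linear scale. Changes are differences of mean log2(intensity + 15.82), which understates the change of dim probe sets, with a standard error (SE) and a limma p-value adjusted by Benjamini-Hochberg over the 6555 probe sets tested; a probe set changed where the adjusted p was below 0.05. Array totals were level: the 2% trimmed mean lay between 500.2 and 500.7. The arrays were divided into 3 technical sets by clustering of their control probe sets. The number of sets was fixed at 3 and not estimated, and the labels name no such sets. Set 1 held 6 immature and 4 mature arrays, set 2 held 7 immature, 6 young and 6 arrays without a stage word, and set 3 held 8 young, 10 mature and 8 arrays without a stage word. The actin 3'/5' ratio, which rises as RNA degrades, was 5.08, 2.75, 5.55 and 2.82 on mature replicates 1, 5, 9 and 12, against 0.869 to 1.94 on the other 51 arrays. Replicates 5 and 12 were among the 4 mature arrays of set 1, and replicates 1 and 9 among the 10 of set 3. On the other 53 arrays the GAPDH 3'/5' ratio was at most 2.62, while mature replicates 1 and 9 read 7.18 and 3.47. Each of the 10 genes had a probe set above the filter, as had kidney proximal tubule markers such as Lrp2 (5815.8 to 14874.8).

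Across the stages the 10 genes did not move together. The PDGF receptor probe sets Z14119cds_at (Pdgfrb) and Z14118cds_g_at (Pdgfra) rose in mature and in young kidney against immature kidney. The contractile probe sets S77900_at (Myl9) and rc_AI180288_s_at (Cald1) fell in mature kidney, and 1 of the 3 probe sets of Acta2 fell in young kidney. The second Myl9 probe set, S77900_g_at, also fell in young kidney, and Pdgfra rc_AI232379_at fell in the group without a stage word. Of all these calls, only those of Myl9 S77900_at and Pdgfra Z14118cds_g_at still passed with the technical set as a block. The Cald1 call was also lost without the arrays of raised actin ratio. Tagln, Myh11, Cnn1, Itga8 and Vim had no probe set that passed the test in any of the 6 stage comparisons over all arrays. Of the 16 probe sets, 5 differed somewhere among the 4 groups (Myl9 S77900_at, Pdgfrb, Pdgfra Z14118cds_g_at, Cald1 and Acta2 X06801cds_f_at) by limma's moderated F test, against 28.5% of all probe sets tested.

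Mature against immature kidney called 4 of the 16, 2 higher and 2 lower, while 24.4% of all probe sets were called (10.3% higher and 14.1% lower). Young against immature kidney also called 4 of 16, against 18.7% of all. Both shares lie near those of the whole array. The group without a stage word against immature kidney called 3 of 16, against 27% of all. These 3 comparisons share the immature arrays. Mature against young kidney called none of 16, against 1.8% of all, although 5 had an unadjusted p below 0.05. Arrays without a stage word, set against young kidney, gave no call either, against 0.229% of all, with 1 of the 16 below 0.05 unadjusted. Mature kidney against the group without a stage word called 1 of 16, against 0.412% of all.

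**Figure D1:**
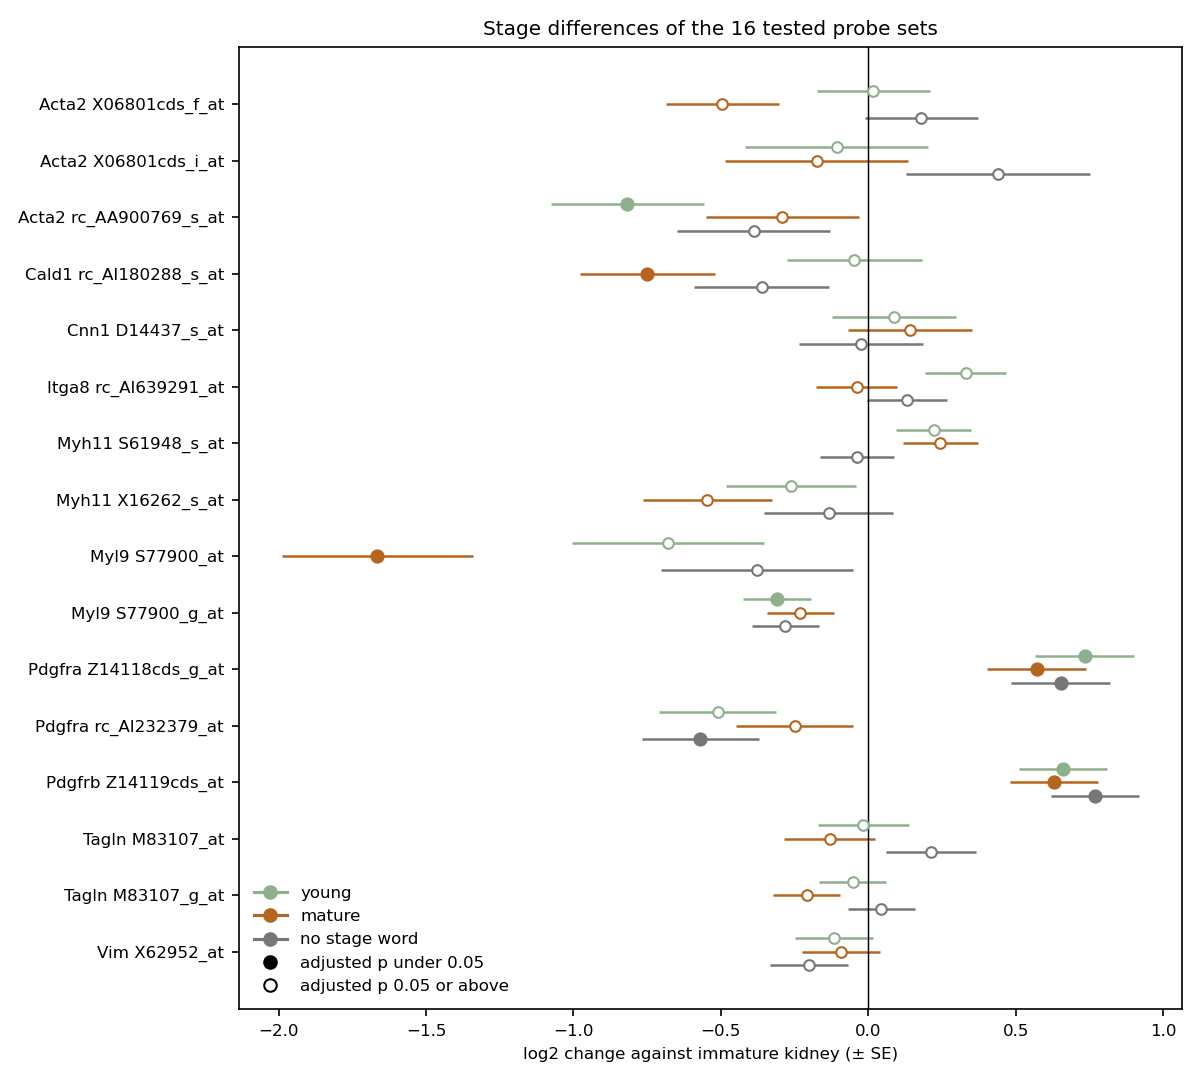
Log2 change ± SE against immature kidney (x axis) of the 16 tested probe sets (y axis) in young kidney, mature kidney and the group without a stage word; filled points have an adjusted p below 0.05. Pdgfrb and Pdgfra Z14118cds_g_at lie right of 0 in all 3 comparisons, and Myl9 S77900_at in mature kidney lies farthest left at -1.66.

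Myl9 encodes the regulatory myosin light chain of smooth muscle, whose phosphorylation starts contraction. On S77900_at the lowest, median and highest intensities were 263.3, 1149.9 and 1852.3 on immature arrays, 220.6, 681.7 and 1499.2 on young arrays, 69.3, 311.9 and 1268.6 on mature arrays, and 388.5, 817.9 and 1763.4 on arrays without a stage word. Only 1 of 14 mature arrays exceeded the immature median, and the ranges overlapped. Mean log2 intensity was 8.40 ± 1.16 in mature kidney (SD, n = 14) and 10.06 ± 0.74 in immature kidney (SD, n = 13), a log2 change of -1.66 ± 0.33, or 3.17-fold lower in mature kidney (limma, adjusted p = 0.000122). Against the group without a stage word the mature change was -1.29 ± 0.32 (limma, adjusted p = 0.0461), which was lost in 15 of the 28 fits that left out 1 array of either group, and most on leaving out mature replicate 9 (adjusted p = 0.104). Young kidney lay between in its median, but neither mature against young (-0.98 ± 0.32, limma adjusted p = 0.0833) nor young against immature kidney (-0.68 ± 0.33, adjusted p = 0.134) passed with all arrays. Without mature replicate 12 the change against young kidney was -1.13 ± 0.31 (limma, adjusted p = 0.0411). With the technical set as a block the mature change against immature kidney was -1.16 ± 0.36 (limma, adjusted p = 0.0252), and inside set 1 alone it was -0.87 ± 0.67 (adjusted p = 0.582). Without the 4 arrays of raised actin ratio it was -1.36 ± 0.30 (limma, adjusted p = 0.00045), and with both changes together -0.84 ± 0.34, which did not pass (adjusted p = 0.0718).

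The other Myl9 probe set, S77900_g_at, gave another picture. Its intensities ran from 305.9 to 693.9 on immature arrays (median 443.5), 206.4 to 444.9 on young arrays (median 355.3), 241.9 to 548.5 on mature arrays (median 377.1) and 237 to 473.2 on arrays without a stage word (median 366.55). It fell in young against immature kidney by 0.31 ± 0.11 on the log2 scale (limma, adjusted p = 0.0479), a call that was lost in 17 of the 27 fits that left out 1 array and with the technical set as a block (adjusted p = 0.115). In mature kidney its change was -0.23 ± 0.11 (limma, adjusted p = 0.129). After removing group means, both Myl9 probe sets had a Pearson correlation of 0.0048 over the 55 arrays, given as a description. The mature fall was seen on S77900_at alone.

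Cald1 encodes caldesmon, an actin-binding protein that restrains the myosin motor. Its probe set rc_AI180288_s_at read 65.5, 123.6 and 208.7 on immature arrays (lowest, median, highest), 61.6, 108.6 and 225.5 on young arrays, 9.1, 79.9 and 142.1 on mature arrays and 33.9, 97.1 and 132.1 on arrays without a stage word. Mature kidney differed from immature kidney by -0.75 ± 0.23 on the log2 scale (limma, adjusted p = 0.0120). The lowest mature values, 11.6, 28 and 9.1, were on replicates 1, 5 and 9, which have raised actin ratios. The 10 mature arrays of lower ratio read 31 to 142.1, and replicate 12, also of raised ratio, read 115.4, inside that range. Without replicates 1 and 9 the change was -0.48 ± 0.20 (limma, adjusted p = 0.0688), and without all 4 arrays of raised ratio -0.41 ± 0.20 (adjusted p = 0.110). In the fit with technical set as a block it was -0.50 ± 0.24 (limma, adjusted p = 0.176). Technical sets divided this probe set within a stage: immature arrays read 65.5 to 113.3 in set 1 and 123.6 to 208.7 in set 2, and young arrays 140 to 225.5 in set 2 and 61.6 to 128.5 in set 3. These ranges did not overlap within either stage. Against young kidney the mature change of Cald1 passed only without mature replicate 2 (-0.78 ± 0.22, limma adjusted p = 0.0462) among the fits that left out 1 array. The parts of RNA quality and technical set in the Cald1 difference were not tested.

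**Figure D2:**
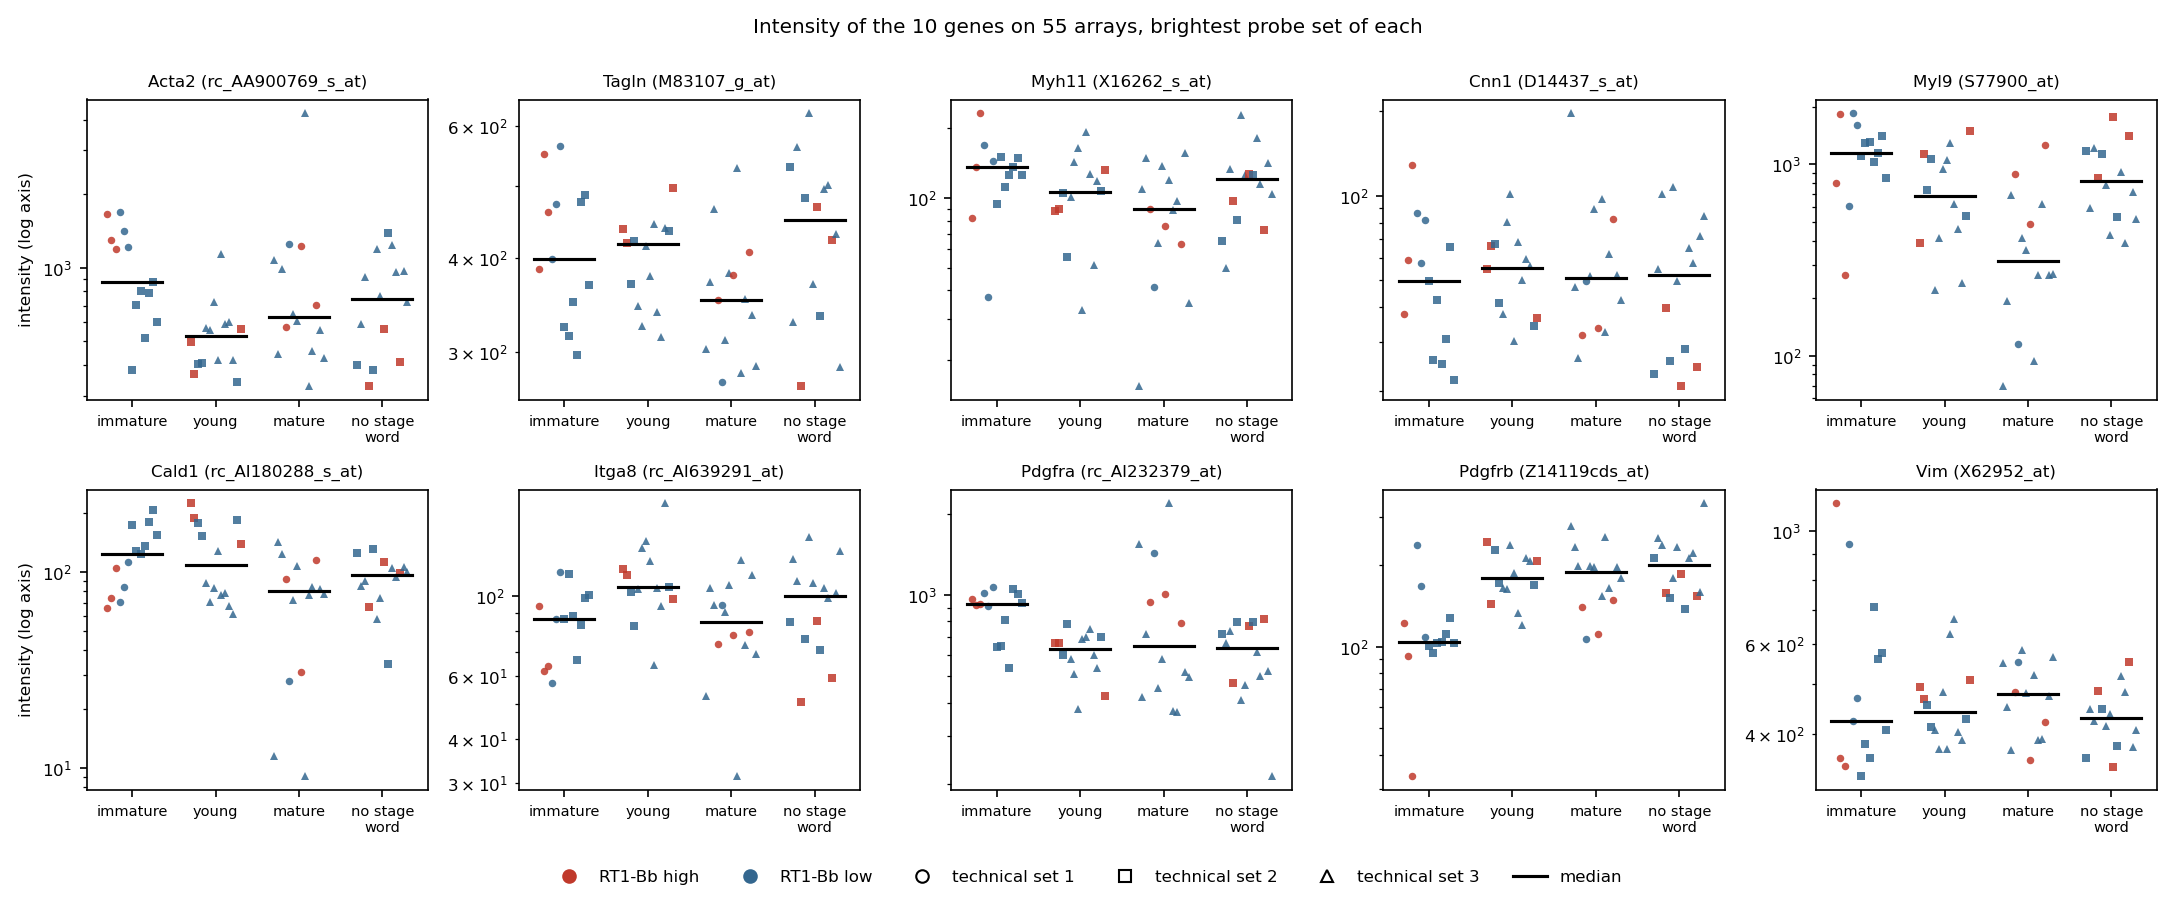
Intensity (log y axis) on each of the 55 arrays for the brightest probe set of each of the 10 genes, by stage (x axis), with colour for RT1-Bb class, symbol for technical set and a bar at the group median. The bars of Myl9 S77900_at lie at 1149.9, 681.7 and 311.9 from immature to mature kidney, while those of Cnn1 stay between 49.6 and 55.25 in all 4 groups.

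Acta2 encodes smooth muscle alpha-actin, the thin filament protein most used to mark these cells, and had 3 probe sets of its own. On rc_AA900769_s_at the lowest, median and highest intensities were 381, 872.7 and 1688.6 on immature arrays, 341, 526.55 and 1134.8 on young arrays, 329.2, 627.1 and 4256.7 on mature arrays and 328.1, 743.8 and 1387.7 on arrays without a stage word. Only 1 of 14 young arrays exceeded the immature median. The young change against immature kidney was -0.82 ± 0.26 (limma, adjusted p = 0.0212), and with the technical set as a block -0.72 ± 0.26 (adjusted p = 0.0716). Immature arrays read 1185.3 to 1688.6 in set 1 and 381 to 872.7 in set 2, so the spread inside this stage followed the technical set. In set 2, where young and immature arrays can be compared directly, the 6 young arrays read 341 to 560.6 and the 7 immature arrays 381 to 872.7, a change of -0.59 ± 0.26 (limma, adjusted p = 0.0971).

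On mature arrays the Acta2 probe set rc_AA900769_s_at was highest on replicate 9, at 4256.7, and read 1070.1 and 1243.9 on replicates 1 and 5. The 10 mature arrays of lower actin ratio read 329.2 to 1221, and replicate 12, of raised ratio, read 702.8, inside that range. Its mature change against immature kidney was -0.29 ± 0.26 with all arrays (limma, adjusted p = 0.425) and -0.65 ± 0.24 without the 4 arrays of raised ratio (adjusted p = 0.0342), or -0.85 ± 0.22 with the technical set as a block as well (adjusted p = 0.00339). The coding-region probe sets moved the other way on replicates 1, 5 and 9. X06801cds_f_at read 25.5, 222.3 and 221 there, against 275 to 462.3 on the 10 arrays of lower ratio. X06801cds_i_at read 51.5, 4.4 and 3.7, against 57.4 to 152.5. Replicate 12 read 310 on X06801cds_f_at and 148.3 on X06801cds_i_at, inside both ranges. Their mature changes against immature kidney were -0.49 ± 0.19 (limma, adjusted p = 0.0512) and -0.18 ± 0.31 (adjusted p = 0.706). The first passed in 6 of the 27 fits that left out 1 array, with the smallest p without mature replicate 11 (limma, adjusted p = 0.0311). Without group means, X06801cds_f_at and rc_AA900769_s_at had a Pearson correlation of -0.10 over 55 arrays.

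**Figure D3:**
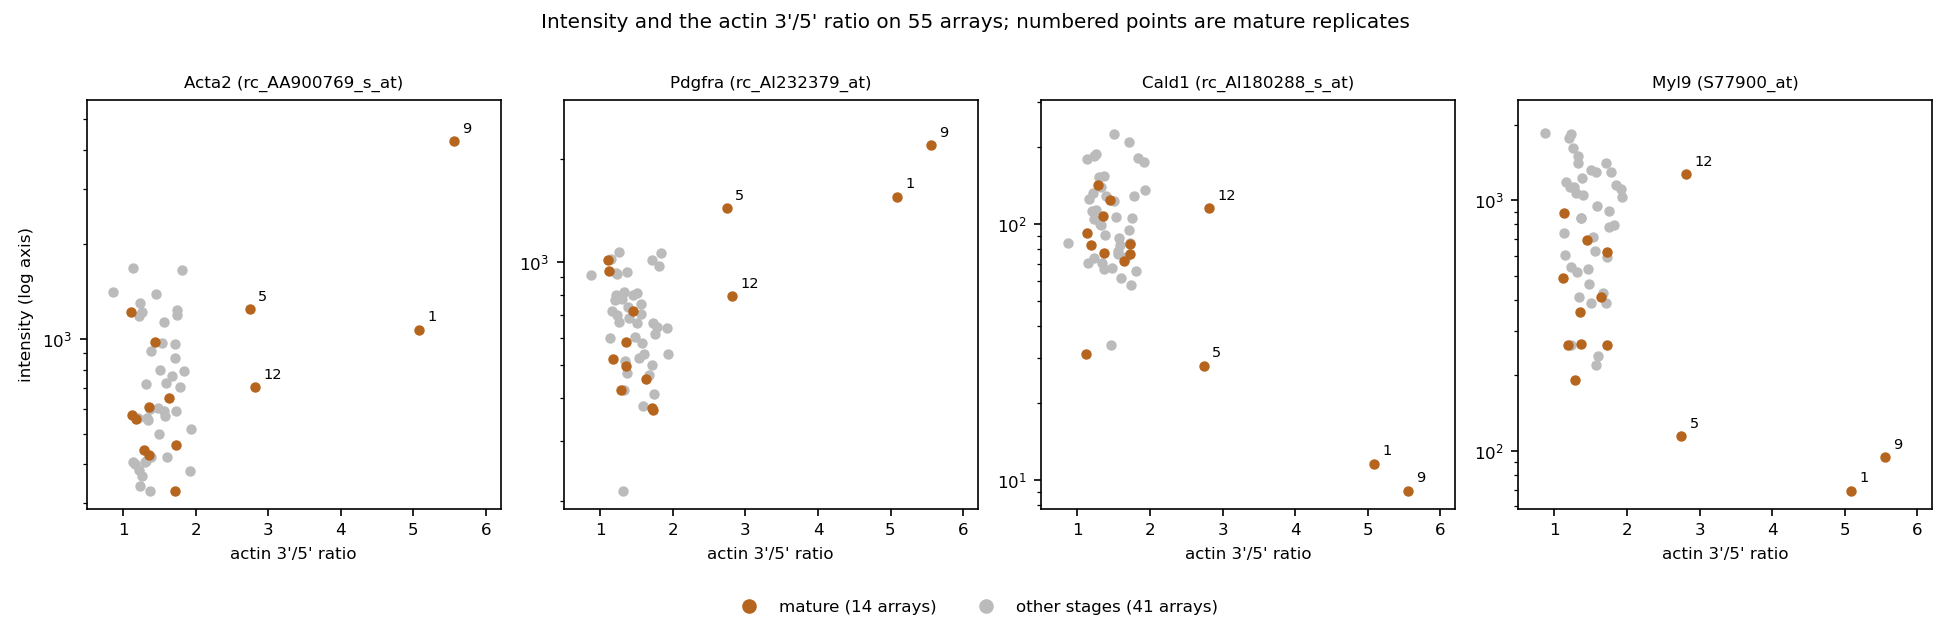
Intensity (log y axis) against the actin 3'/5' ratio (x axis) on 55 arrays for Acta2, Pdgfra, Cald1 and Myl9, with mature arrays in brown and the 41 arrays of the other groups in grey; numbers give the mature replicates with a ratio above 2.5. Replicates 1 and 9 read 1551.6 and 2196.8 for Pdgfra rc_AI232379_at and 11.6 and 9.1 for Cald1.

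Of the 4 probe sets annotated to Acta2 and Actc1 together, 2 were bright enough to test. X80130cds_i_at read 350 to 713.8 on mature arrays (median 501) and 191.9 to 730.8 on immature arrays (median 297.9). Its mature change was 0.49 ± 0.14 (limma, adjusted p = 0.00898), with 14 of 14 mature arrays above the immature median. Technical set moved with this probe set (limma's moderated F test, adjusted p = 0.000549). In set 1, which holds both stages, its mean log2 intensity was 8.93 ± 0.33 in mature (SD, n = 4) and 8.93 ± 0.49 in immature kidney (SD, n = 6), and with the set as a block the change was 0.29 ± 0.14 (limma, adjusted p = 0.184). X80130cds_f_at changed by 0.16 ± 0.16 (limma, adjusted p = 0.471). The shared probe sets rc_AI104567_at and rc_AI104567_g_at were below the filter, at 1.4 to 78.6 and 11.4 to 122.6 over all groups. Skeletal muscle actin (Acta1, J00692_at), whose sequence is close to both, read 35.8 to 180 over the 55 arrays. Which actin these shared probe sets reported cannot be told apart.

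Over all arrays the other contractile genes did not pass the test at any stage. Tagln encodes transgelin, an actin-bundling protein of smooth muscle. Its brighter probe set M83107_g_at read 273.9 to 527.7 on mature arrays (median 352.35) and 296.9 to 564.2 on immature arrays (median 399.1), a change of -0.21 ± 0.11 (limma, adjusted p = 0.170), and M83107_at changed by -0.13 ± 0.15 (adjusted p = 0.554). The Tagln pair had a Pearson correlation of 0.56 over 55 arrays after group means were removed. Cnn1 (D14437_s_at), calponin, which binds actin and slows its sliding, read 26.2 to 197.1 on mature arrays (median 50.65) and 21.9 to 128.4 on immature arrays (median 49.6), with a change of 0.14 ± 0.21 (limma, adjusted p = 0.647).

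Myh11 encodes the heavy chain of smooth muscle myosin. X16262_s_at read 15.4 to 155.9 on mature arrays (median 89.3) and 37.6 to 232.4 on immature arrays (median 136.2), a change of -0.55 ± 0.22 (limma, adjusted p = 0.0601). With the technical set as a block it was -0.74 ± 0.25 (limma, adjusted p = 0.0421), and it passed in 6 of the 27 fits that left out 1 array, with the smallest p without immature replicate 5 (adjusted p = 0.0171). S61948_s_at, the second Myh11 probe set, changed by 0.24 ± 0.13 (limma, adjusted p = 0.147), with 12 of 14 mature arrays above the immature median. The pair had a Pearson correlation of 0.04 over 55 arrays and gave opposite signs. The third, X16261_i_at, was below the filter, with medians of 15.15 on mature and 14.3 on immature arrays.

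Itga8 (rc_AI639291_at), the alpha 8 integrin chain of mesangial cells, and Vim (X62952_at), vimentin, the intermediate filament of mesenchymal cells, did not pass the test in any stage comparison over all arrays. Itga8 read 57.1, 86.4 and 116.9 on immature arrays (lowest, median, highest), 64.5, 105.9 and 182.2 on young arrays, 31.4, 85.05 and 126.2 on mature arrays and 50.8, 100.35 and 146.3 on arrays without a stage word. Its mature change was -0.04 ± 0.14 (limma, adjusted p = 0.852) and its young change 0.33 ± 0.14 (adjusted p = 0.0805), with 12 of 14 young arrays above the immature median. Without young replicate 9 the young change of Itga8 was 0.38 ± 0.14 (limma, adjusted p = 0.0422). Vim changed by -0.09 ± 0.13 in mature kidney (limma, adjusted p = 0.630). Its medians were 424.7, 442.15 and 478.2 from immature to mature kidney, while its mean log2 intensity was 8.91 ± 0.23 in mature (SD, n = 14) and 9.00 ± 0.56 in immature kidney (SD, n = 13). The immature mean was raised by replicates 1 and 4, at 1134.1 and 941.1, above the other immature arrays at 330.1 to 710.2.

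Each receptor gene rose against immature kidney on 1 probe set, while the other tested probe set of Pdgfra pointed down. Pdgfrb encodes the PDGF receptor beta of mesangial cells and pericytes. Z14119cds_at read 33.3, 104 and 236.8 on immature arrays (lowest, median, highest), 119.8, 179 and 242.2 on young arrays, 106.2, 187.75 and 277.2 on mature arrays and 137.4, 198.65 and 336.8 on arrays without a stage word. All 14 arrays of each other group exceeded the immature median, although each of these ranges overlapped the immature range. The log2 change was 0.66 ± 0.15 in young kidney (limma, adjusted p = 0.00128), 0.63 ± 0.15 in mature kidney (adjusted p = 0.00128) and 0.77 ± 0.15 in the group without a stage word (adjusted p = 8.94e-05), all against the same immature arrays. When technical set was a block, the changes were 0.45 ± 0.16 (limma, adjusted p = 0.0719), 0.43 ± 0.17 (adjusted p = 0.0763) and 0.56 ± 0.16 (adjusted p = 0.0106) in the same order.

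Within a technical set the Pdgfrb difference was uneven. In set 1 the 4 mature arrays read 140, 106.2, 111.6 and 147.7, and the 6 immature arrays 33.3 to 236.8 (median 115.25), a change of 0.15 ± 0.37 (limma, adjusted p = 0.889). The values 106.2 and 147.7 are those of mature replicates 5 and 12, of raised actin ratio. In set 2 the 6 young arrays read 143 to 242.2, all above the 7 immature arrays at 94.9 to 127.6, and the 6 arrays without a stage word read 137.4 to 212, also above them. The set 2 changes were 0.75 ± 0.11 in young kidney (limma, adjusted p = 7.8e-05) and 0.56 ± 0.11 in the group without a stage word (adjusted p = 0.000537), in fits where 29.3% and 43.4% of all probe sets were called.

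Pdgfra encodes the PDGF receptor alpha of interstitial fibroblasts and stroma. Z14118cds_g_at read 11.3, 47.6 and 76.5 on immature arrays (lowest, median, highest), 45.7, 83.1 and 112.1 on young arrays, 31, 74.95 and 109.6 on mature arrays and 45.7, 74.6 and 123 on arrays without a stage word. The changes against immature kidney were 0.73 ± 0.17 in young kidney (limma, adjusted p = 0.00146), 0.57 ± 0.17 in mature kidney (adjusted p = 0.00942) and 0.65 ± 0.17 in the group without a stage word (adjusted p = 0.00255). With the technical set as a block they were 0.55 ± 0.18 (limma, adjusted p = 0.0490), 0.53 ± 0.19 (adjusted p = 0.0494) and 0.47 ± 0.18 (adjusted p = 0.0645) in the same order. Inside set 2 the group without a stage word differed from immature kidney by -0.058 ± 0.16 (limma, adjusted p = 0.788). The brighter Pdgfra probe set, rc_AI232379_at, pointed down. It read 537.1, 924.9 and 1070.2 on immature arrays, 377.8, 633.4 and 779.5 on young arrays, 368.7, 651.05 and 2196.8 on mature arrays and 213.1, 639.35 and 817.8 on arrays without a stage word. None of the 14 young arrays and none of the 14 without a stage word exceeded the immature median. Its change was -0.51 ± 0.20 in young kidney (limma, adjusted p = 0.0612) and -0.57 ± 0.20 in the group without a stage word (adjusted p = 0.0267), a call lost with the technical set as a block (-0.23 ± 0.21, adjusted p = 0.499) and without replicate 14 of that group (adjusted p = 0.0667). The young change passed without immature replicate 10 (limma, adjusted p = 0.0436).

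In mature kidney the change of Pdgfra rc_AI232379_at was -0.25 ± 0.20 (limma, adjusted p = 0.365). Replicates 1, 5 and 9 read 1551.6, 1435.2 and 2196.8, above the 10 mature arrays of lower actin ratio at 368.7 to 1015. Replicate 12, also of raised ratio, read 792.3, inside that range. Without the 4 arrays of raised ratio the change was -0.63 ± 0.17 (limma, adjusted p = 0.00412). Adding technical set as a block gave -0.22 ± 0.17 (limma, adjusted p = 0.409). In set 1 the 2 mature arrays of lower ratio read 940.6 and 1015, inside the immature range of 916.6 to 1070.2. The Pdgfra probe sets had a Pearson correlation of -0.48 over 55 arrays after group means were removed. The remaining Pdgfra probe sets were below the filter: Z14118cds_at had medians of 35.25 on mature and 19.7 on immature arrays, and rc_AI137657_at 5.65 and 5.5. Against immature kidney, Pdgfra had opposite signs on its 2 tested probe sets.

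The RT1-Bb probe set X56596_at fell into separate ranges, from 1411.5 to 2381.2 on 12 arrays (median 1740.3) and from 80.1 to 263 on 43 arrays (median 147.6), so no array lay near 600. Each stage held 3 high arrays. All high immature and high mature arrays were in technical set 1, and all high young arrays and high arrays without a stage word in set 2. Because these classes come from a measured value, high and low arrays of a stage are described without a test, and the stage differences inside each class were tested. Immature kidney had 1 of the 16 probe sets whose high and low arrays did not overlap, against 2.52% of all probe sets. The counts were 0 of 16 in young, mature and the group without a stage word, against 5.75%, 5.08% and 5.26% of all probe sets.

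The exception was Pdgfra Z14118cds_g_at. The 3 high immature arrays read 14.4, 14 and 11.3, and the 10 low immature arrays 27.7 to 76.5 (median 63.2). Inside technical set 1 the 3 low immature arrays read 47.6, 42.8 and 40.8, again above all 3 high ones. In mature kidney the high arrays read 72.7, 85.4 and 70.8 and the low arrays 31 to 109.6 (median 76.3). The mature change against immature kidney was 1.66 ± 0.28 among high arrays (limma, adjusted p = 0.000111), where 2.91% of all probe sets were called, and 0.24 ± 0.15 among low arrays (adjusted p = 0.210), where 31% were called. The high change exceeded the low one by 1.42 ± 0.32 (limma, adjusted p = 0.00800), a test passed by 1.82% of all probe sets and by 1 of the 16. High arrays of both stages lie in set 1. Of the low arrays, 10 mature ones lie in set 3 and 1 in set 1, and the immature ones in sets 1 and 2. The low change, and with it this difference, therefore cannot be told apart from technical set.

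The same Pdgfra probe set rose in high young arrays (103.4, 78.1 and 112.1) by 1.96 ± 0.28 against high immature arrays (limma, adjusted p = 2.2e-05), and in low young arrays by 0.37 ± 0.15 (adjusted p = 0.0685). These differed by 1.58 ± 0.32 (limma, adjusted p = 0.00572), a test passed by 3.3% of all probe sets. For the group without a stage word the difference was 1.10 ± 0.32 (limma, adjusted p = 0.0655), with high arrays at 59.4, 69.5 and 69.5. High immature arrays lie in set 1 and high young arrays and those without a stage word in set 2, so class, stage and technical set cannot be told apart in these comparisons. On the brighter Pdgfra probe set, rc_AI232379_at, the high immature arrays read 969.1, 920.2 and 924.9, inside the range of the low ones at 537.1 to 1070.2.

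**Figure D4:**
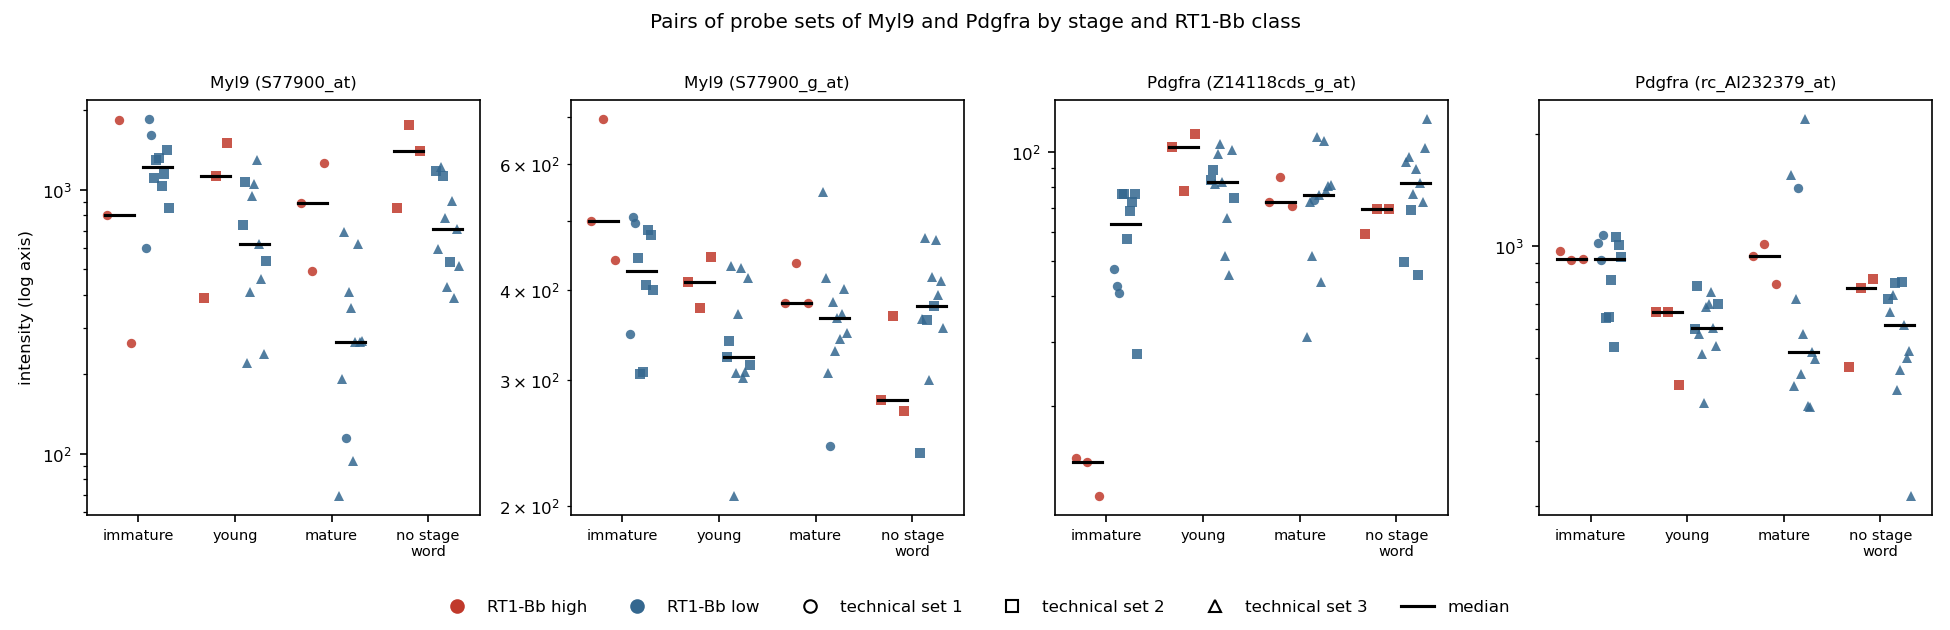
Intensity (log y axis) of both tested probe sets of Myl9 and of Pdgfra on 55 arrays by stage (x axis), with RT1-Bb high arrays left and low arrays right, symbols for technical set and bars at medians. The 3 high immature arrays of Pdgfra Z14118cds_g_at lie at 11.3 to 14.4, below all other arrays, and low mature arrays of Myl9 S77900_at have a median of 265.6.

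For Myl9 S77900_at the fall in mature against immature kidney passed among low arrays and not among high arrays. High mature arrays read 890.2, 491 and 1268.6, and high immature arrays 799.8, 1844.6 and 263.3, a change of 0.16 ± 0.62 (limma, adjusted p = 0.954). Low mature arrays read 69.3 to 694.5 (median 265.6) and low immature arrays 603 to 1852.3 (median 1222.35), a change of -2.18 ± 0.33 (limma, adjusted p = 1.89e-06). The difference between these changes was 2.34 ± 0.70 and missed the threshold (limma, adjusted p = 0.0637), so the classes are not shown to differ. Mature replicates 1, 5 and 9, of raised actin ratio, are low arrays and read 69.3, 114.8 and 94.1. The 10 mature arrays of lower ratio read 192.3 to 890.2, and replicate 12, a high array of raised ratio, read 1268.6. All high mature arrays are in set 1 and all but 1 of the low mature arrays in set 3, the exception being mature replicate 5. Among low arrays the mature change was also -1.23 ± 0.32 against young kidney (limma, adjusted p = 0.0439), where 0.931% of all probe sets were called, and -1.47 ± 0.32 against the group without a stage word (adjusted p = 0.0255), where 0.427% were called. For Cald1 the change among low arrays was -0.93 ± 0.25 (limma, adjusted p = 0.00379), and for Pdgfrb 0.59 ± 0.16 (adjusted p = 0.00325). With the technical set as a block, low arrays fitted alone kept the mature call of Myl9 S77900_at (-2.03 ± 0.43, limma adjusted p = 0.00174). Cald1 (-0.77 ± 0.32, limma adjusted p = 0.155) and Pdgfrb (0.36 ± 0.19, adjusted p = 0.292) did not pass in that fit. Only 1 low mature array in it, replicate 5 of raised actin ratio, shared a technical set with immature arrays. The other low mature arrays were tied to immature ones through young arrays and arrays without a stage word.

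Technical sets beside stage changed 5 of the 16 probe sets (Cnn1, Acta2 rc_AA900769_s_at, Cald1, Pdgfra rc_AI232379_at and Myl9 S77900_at) by limma's moderated F test, against 60.9% of all probe sets. Some marker sums of other cell types also differed between stages, and others overlapped widely. Distal nephron and collecting duct markers summed to 6260.8 to 11015.3 on mature arrays and 11606.8 to 16161.5 on immature arrays, with no overlap. Podocyte markers had medians of 707.8 on mature and 732.4 on immature arrays. Markers of dividing cells (5 of 6 on the array) summed to 1075.7 to 1589 on mature arrays and 1887.7 to 3558.1 on immature arrays, with no overlap. Endothelial markers (5 of 7) summed to 1191.6 to 1949.8 on mature arrays (median 1507.95) and 896.4 to 1559.4 on immature arrays (median 1124). Skeletal muscle markers (7 of 9) summed to 644 to 2379.1 on mature arrays (median 848.1) and 508.3 to 1269.2 on immature arrays (median 740.8), with Tnni2 and Myh2 below the filter. The brightest probe sets of the 10 genes summed to 2213.4 to 8008.7 on mature arrays (median 3356.6) and 3286.7 to 5511.4 on immature arrays (median 4576.5). The highest mature sum was on replicate 9, of raised actin ratio, where Acta2 read 4256.7 and Pdgfra 2196.8. The part of cell composition in the stage differences was not tested.

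Other contractile and SRF target genes were compared in mature against immature kidney. Of 26 measured genes, 8 fell and 3 rose, with a median log2 change of -0.23, against 553 that fell and 398 that rose of all 3835 genes (median 0.04). Csrp2, a LIM protein of smooth muscle, fell by 0.50 ± 0.10 on the log2 scale (limma, adjusted p = 0.000308). Gucy1b1 and Gucy1a1, the subunits of the nitric oxide receptor guanylate cyclase, changed by -0.68 ± 0.15 and -0.78 ± 0.19 (limma, adjusted p = 0.000472 and 0.00181). Itgb1, the beta 1 integrin chain that pairs with Itga8, changed by -0.52 ± 0.12 (limma, adjusted p = 0.00122). The 3 that rose were Kcnmb1, Tagln3 and Tpm1, at 0.41, 0.39 and 0.35 (limma, adjusted p = 0.0149, 0.0166 and 0.0341). In the fit with technical set as a block both cyclase subunits stayed below 0.05 (limma, adjusted p = 0.0243 and 0.0166), and Csrp2 and Itgb1 did not (0.0561 and 0.204). Over the 26 genes the block left 4 that fell, 3 of them among the 8, and none that rose, against 282 that fell and 197 that rose of all 3835. In young against immature kidney 6 of the 26 fell and 1 rose, against 400 that fell and 318 that rose of all genes. With the block 2 of those 6 (Cnn3 and Myl12a) still fell and none rose.

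The PDGF ligands did not pass. Pdgfb, the ligand of Pdgfrb, changed by 0.56 ± 0.24 in mature kidney (limma, adjusted p = 0.0833) and Pdgfa, a ligand of Pdgfra, by 0.07 ± 0.19 (adjusted p = 0.814). Of 7 measured genes of ligands and signalling, 1 rose (the kinase Src, 0.68 ± 0.22, limma adjusted p = 0.0197) and none fell, with a median of 0.07. With the technical set as a block none rose and 1 fell: Src was at 0.46 (limma, adjusted p = 0.186) and Ptpn11, a phosphatase that binds the activated receptors, at -0.65 (adjusted p = 0.0192). Among 11 genes of pericytes, mesangium and juxtaglomerular cells 3 rose and 2 fell (median -0.08). Agtr1a, the angiotensin II receptor, fell by 0.58 ± 0.13 on the log2 scale (limma, adjusted p = 0.000808) and Kcnj8, the pore of the pericyte ATP-sensitive potassium channel, by 0.42 ± 0.11 (adjusted p = 0.00289), while Abcc9, the regulatory subunit of the same channel, rose by 0.60 ± 0.22 (adjusted p = 0.0360). Nestin (Nes), an intermediate filament protein, rose by 0.41 ± 0.15 (limma, adjusted p = 0.0416). When technical set was a block, none of the 11 rose and 4 fell. Agtr1a and Kcnj8 stayed below 0.05 (limma, adjusted p = 0.0486 and 0.00763), Thy1 (-0.61, adjusted p = 0.00208) and Notch1 (-0.61, adjusted p = 0.00502) passed there alone, and Abcc9, Nes and Gja5 did not pass (0.0797, 0.498 and 0.825).

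Of 8 measured genes listed with Itga8, 3 fell and none rose (median 0.05). The list holds the partner Itgb1 and the ligands Fn1, Spp1, Vtn and Tnc. It also holds Gdnf, Ret and Wt1, which are neither partners nor ligands and changed by 0.03, 0.22 and 0.06 without passing. Fn1 (fibronectin) changed by -1.63 ± 0.18 (limma, adjusted p = 4.79e-10), Spp1 (osteopontin) by -0.78 ± 0.18 (adjusted p = 0.000676), and Itgb1 as given above. The ligands Vtn (vitronectin, 0.07 ± 0.22, limma adjusted p = 0.854) and Tnc (tenascin C, 0.40 ± 0.23, adjusted p = 0.197) did not pass. Both Fn1 and Spp1 stayed below 0.05 (limma, adjusted p = 2.54e-08 and 0.0262) with the technical set as a block. Of 13 interstitial fibroblast and matrix genes, 8 fell and none rose (median -0.53), led by the fibrillar collagen genes Col1a1, Col1a2, Col3a1 and Col5a2 at -2.39, -1.51, -2.37 and -1.73 on the log2 scale. In the block fit 8 of the 13 also fell, 6 of them among those that fell without it. Of 7 intermediate filament genes beside Vim, 3 rose and 1 fell (median 0.37). Nefm, a neurofilament chain, rose by 2.25 ± 0.17 and Krt18, a keratin of simple epithelia, fell by 0.75 ± 0.13 on the log2 scale (limma, adjusted p = 1.22e-15 and 1.41e-05), and Lmna, the nuclear lamin, rose by 0.47 ± 0.13 (adjusted p = 0.00503). With the technical set as a block 1 of the 7 rose (Nefm) and 1 fell (Krt18), while Lmna was at 0.25 (limma, adjusted p = 0.225) and Nes did not pass.

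Likeness between genes was measured as Pearson's r to the brightest probe set of each gene over 55 arrays, after group means were removed, and is a description, since arrays share depth, RNA quality and technical set. Tagln was most like the collagen genes Col1a1 (0.59) and Col1a2 (0.54) and the growth factor gene Mydgf (0.55). Acta2 was most like Rbpms (0.76), an RNA-binding protein of smooth muscle, Myadm (0.76) and the cytolinker gene Plec (0.75). Cald1 was most like Etfa (0.87), Rab1a (0.84) and Tra2b (0.83), Pdgfra rc_AI232379_at like Myo1e (0.82), Acly (0.81) and Celf1 (0.80), and Myl9 S77900_at like Ppp2cb, Ate1 and Pnrc1 (0.64 each). Myh11 was most like Entpd1 (0.48), Anxa2 and Plcl1 (0.47 each), and Vim like Ptbp3, Klf9 (0.54 each) and Fmo1 (0.52). Itga8 was most like Rb1 (0.71), Epb41l4b (0.69) and Vamp3 (0.68), Pdgfrb like Trdmt1 (0.67), Nptx1 and Slc4a1 (0.65 each), and Cnn1 like Or1f19e (0.71), Pank2 (0.70) and Or5ak25 (0.67). Among the members themselves, Itga8 and Pdgfra Z14118cds_g_at (0.49) were most alike across genes, counting probe sets with 1 symbol. Next came Cald1 with Myl9 S77900_at (0.48), and Acta2 rc_AA900769_s_at with Pdgfra rc_AI232379_at (0.48) and with Cnn1 (0.47). The largest value in size was negative, -0.67 for Acta2 rc_AA900769_s_at and Cald1, followed by -0.51 for Itga8 and Pdgfra rc_AI232379_at. The part of RNA quality in these values was not tested.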

How the data were processed

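The deposited values are intensities, linear by their range: 8799 probe sets on each of 55 arrays, with no value below 0. How the authors summarised and scaled them is not given in the sources used here. Every array had a 2% trimmed mean of 500.2 to 500.7, and the deposited scaling was kept. Values entered log2 after adding an offset of 15.82, which is 0.1 of the overall median (158.2). The 59 control probe sets and those with a mean log2 value below the 25th percentile were left out, which left 6555 probe sets and 3835 genes. Probe sets were named through the platform annotation and the RefSeq gene table of GRCr8; 7018 had 1 symbol, 308 several and 1473 none. Signal over background was not analysed here, and the number of arrays limits the precision.

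All 55 arrays entered 1 model in limma 3.58.1 (R 4.3.3, lmFit and eBayes, 4 groups, no covariate), with 2-sided p-values adjusted by Benjamini-Hochberg over the 6555 probe sets and a threshold of 0.05. Stage contrasts inside RT1-Bb classes came from a model of stage by class. The 3 technical sets came from Ward clustering of 42 control probe sets, with the tree cut at a fixed number of 3. On simulated data for mature against immature kidney, 35.8%, 92.5% and 100% of probe sets changed by 0.5, 1 and 2 (log2) were recovered among 6555, and 11 of 163 calls were false. The simulated noise was independent between arrays and held no technical set, shared animal or difference in RNA quality. These shares therefore do not give the recovery or the false calls in the data themselves. Replicate numbers follow the order of the samples and pair nothing.

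Every probe set annotated to 1 of the 10 genes was named. Of each gene list up to 4 genes past the threshold with the smallest p were named, by the probe set of highest mean, and for each member the 3 genes most like it. Some further genes were named to give the other direction, the block fit or the content of a list. The members and lists were chosen with earlier results of these data known, and the technical sets and the alternatives without arrays of raised 3'/5' ratios were chosen after seeing the data. Alternatives changed the offset, scaling, filter, weights, prior variance, block and arrays.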

Additional observations from a re-analysis of the deposited data

Results flagged for a closer look

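The change of Pdgfra on Z14118cds_g_at in mature against immature kidney differed between RT1-Bb high and low arrays by 1.42 on the log2 scale (SE 0.32, limma interaction term, adjusted p = 0.00800). The same probe set differed between the classes in young against immature kidney by 1.58 (SE 0.32, limma interaction term, adjusted p = 0.00572). Both rest on the 3 high immature arrays, at 14.4, 14 and 11.3, which stand in both comparisons. The 16 probe sets had no other difference of this kind past the threshold. The classes come from a measured value, and high immature and high young arrays lie in different technical sets. Low mature arrays lie mostly in technical set 3, which holds no immature array.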

How the results depend on the processing

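Of the 1920 values of single probe sets under another setting, 1775 stayed on their side of the threshold without a called value turning its sign; the sign turned in 182 of them that passed in neither fit. Mature against immature kidney called 4 of 16 over all arrays, 7 with array weights, 1 among RT1-Bb high arrays, 0 inside technical set 1 and 1 among RT1-Bb low arrays with the technical set as a block. Young against immature kidney called 4, and 1 with the technical set as a block, 2 among low arrays and 0 among low arrays with that block. The group without a stage word against immature kidney called 3, and 6 with array weights, 1 with the block, 1 among low arrays, 5 inside set 2 and 0 among low arrays with the block. Against young kidney it called 0, and 5 inside set 2. Mature against young kidney called 0, and 1 each with array weights and among low arrays. Mature kidney against the group without a stage word called 1. That count was 2 with an offset of 0.5 of the median or with the block, and 3 with the block and without the 2 arrays of high GAPDH ratio. It was 0 with no filter, among high arrays, inside set 3, without the 2 or the 4 arrays of raised ratios, and with only these groups fitted. With the block and without the 4 arrays of raised actin ratio the counts were 2 for mature and 2 for young against immature kidney, and 2 for mature kidney against the group without a stage word. The count of members called stayed within 1.5 times under the other settings. Leaving out each array in turn gave 4 to 6, 3 to 5, 2 to 4, 0 to 0, 0 to 1 and 0 to 1 calls in the same order of comparisons. The share of all probe sets called moved between settings too. In mature against immature kidney it was 24.4% over all arrays, and 2.91% among RT1-Bb high arrays in the model of stage by class. Inside set 2 it was 43.4% when arrays without a stage word were set against immature kidney, where all arrays gave 27%. Shares under most other settings are not given here. A rise or loss of member calls is therefore not shown to be particular to the members.

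Among values that passed over all arrays or under the setting, signs turned in 7. In mature against immature kidney Acta2 X06801cds_i_at was 0.67 with array weights and Myl9 S77900_at 0.16 among RT1-Bb high arrays fitted alone (limma, adjusted p = 0.914). Inside set 2, X06801cds_i_at was 0.73 in young against immature kidney, and in the group without a stage word against immature kidney Itga8 rc_AI639291_at was -0.30 and Pdgfra Z14118cds_g_at -0.058. Acta2 rc_AA900769_s_at was -0.61 in mature kidney against the group without a stage word with the block and without the 2 arrays of high GAPDH ratio, and -0.64 with the block and without the 4 arrays of raised actin ratio. The causes were not tested. Myl9 S77900_g_at in the group without a stage word against immature kidney passed in 5 of the 27 fits that left out 1 array, with the smallest p without immature replicate 8 (limma, adjusted p = 0.0321). No paired analysis was possible because the replicate numbers only follow the order of the samples. Intensities near the offset, such as the 11.3 to 14.4 of Pdgfra, limit what dim probe sets can show.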

Other observations

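Inside technical set 2, the group without a stage word and young kidney could be compared over 6 arrays of each. There 5 of the 16 probe sets changed, a share near the 27.1% of all probe sets. Cald1 (rc_AI180288_s_at) fell in the group without a stage word by 0.89 on the log2 scale (limma, adjusted p = 0.00435), Cnn1 (D14437_s_at) changed by -0.60 (adjusted p = 0.0177) and Itga8 (rc_AI639291_at) by -0.47 (adjusted p = 0.00706). Myh11 (S61948_s_at) changed by -0.25 (limma, adjusted p = 0.0414) and Pdgfra (Z14118cds_g_at) by -0.47 (adjusted p = 0.0341). In set 3 the ranges of Cald1 overlapped, at 57.7 to 106.4 on the 8 arrays without a stage word (median 92.75) and 61.6 to 128.5 on the 8 young arrays (median 77.55). There Cald1 changed by 0.11 ± 0.29, Cnn1 by 0.26 ± 0.25, Pdgfra Z14118cds_g_at by 0.21 ± 0.18, Itga8 by 0.0048 ± 0.19 and Myh11 S61948_s_at by -0.26 ± 0.20, and none of these passed (limma, adjusted p = 0.99989 each).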
